A study of Mus musculus with 14 samples.

Results

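Gene expression was compared in control tibialis anterior, the shin muscle that lifts the foot, between day 3 and days 7 and 14 of a study of follistatin. All mice were C57Bl/6, and the 6 control libraries were 3 of day 3 (called early), 2 of day 7 and 1 of day 14 (called late together), of 14 libraries in the series. The other 8 were follistatin-treated muscle, 4 of day 3 and 4 of days 7 and 14. The labels give the treatment of these muscles only as control, and give neither what was administered, nor the age of the mice, nor the hour of collection. Nothing in them states that replicates came from separate mice, so each p-value reflects only how these libraries vary, and that variation may be technical. Of the 24359 genes used, the 11155 with a mean of at least 1 FPKM over the 6 control libraries were tested. FPKM counts sequenced fragments relative to transcript length and to library depth. Changes are given as late minus early on log2(FPKM + 1), which understates the change of genes with low values.

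Time after the control treatment cannot be told apart from the set of libraries: every day 3 library belongs to one set, and every later library to another that was sequenced more deeply. The lowest FPKM values, taken as 1 fragment, imply late libraries 3.49 to 4.57 times as deep as day 3 replicate 1, and the other day 3 libraries at 0.715 and 0.911 of it. Control day 7 replicate 1 had the finest steps of these 6 libraries, yet listed 16158 genes above 0, against 20075 in day 7 replicate 2, 19590 in day 14 replicate 1 and 15766 to 16199 at day 3. Pearson correlations of gene-wise log2(FPKM + 1) between libraries were 0.927 to 0.945 within the early set, 0.943 to 0.959 within the late set and 0.916 to 0.929 between them. As a check of the tissue label, 21 of 22 skeletal muscle markers exceeded 100 FPKM in each early library. Of these 22, 19 carried the mark HIDATA (too many reads to be estimated) and were left out, and 5 of the 22 (among them Acta1, skeletal alpha-actin, and Myh4, the fast IIB myosin heavy chain) were listed at 0 in late libraries.

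Skeletal muscle that has been injured or injected passes through a repair programme. Macrophages clear debris, satellite cells activate the myogenic factors Myod1 and Myog, and new fibres transiently make embryonic forms of the contractile proteins and of the acetylcholine receptor. Muscle also runs a circadian clock, in which Arntl and Clock activate the Per and Cry genes whose products repress them, and it responds to glucocorticoids with genes that restrain growth.

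Of the 11155 genes, 971 passed an adjusted p of 0.05 (limma, Benjamini-Hochberg), a share of 8.7%. Of these, 500 rose (4.48%) and 471 fell (4.22%). At an unadjusted p under 0.05 there were 2729 genes, and in 3471 (31.1%) the early and late libraries did not overlap. The median change of all tested genes was -0.07, and 35.5% were above 0. Rises by more than 1 on the log2 scale numbered 164, and falls by more than 1 numbered 72. The balance of directions moved with scaling: after rescaling by the median ratio of the genes, 629 rose and 278 fell. With any 1 library left out, 490 to 622 genes were called. Without day 3 replicates 1, 2 and 3 the calls were 546, 564 and 622, without day 7 replicates 1 and 2 they were 490 and 541, and without day 14 replicate 1 they were 506. Falls dropped to between 142 (without day 14 replicate 1) and 218 (without day 3 replicate 3), against 339 to 404 rises. Of the 144 called genes examined singly, 64 lost the call in at least 1 of these fits.

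Most genes that rose have a copy elsewhere in the genome, such as a processed pseudogene (a spliced messenger RNA that was copied back into the genome). A copy here may match only part of the transcript. Of the 500 genes that rose, 373 (74.6%) had a copy of at least 90% identity, against 1471 (13.2%) of all tested genes and 31 (6.58%) of the 471 that fell. The share of genes that rose was 1.65% among the 9394 genes with 0 annotated pseudogenes, 16.1% among 793 with 1 and 32.6% among 172 with 2. It was 60.4% among 96 genes with 3 to 4, 65.6% among 64 with 5 to 9 and 74.5% among 55 with 10 or more. The median change went from -0.09 with 0 pseudogenes through 0.06, 0.17, 0.54 and 0.68 to 0.89 with 10 or more. Expression climbed along the same groups: the median early level was 7.22 FPKM with 0 pseudogenes and 72.4 with 10 or more. The part of expression level in these shares and changes was not tested. Over the 9103 genes with no copy found, 1.18% rose and 4.58% fell. Where over 0 to 25% of the transcript was found elsewhere (482 genes), 16.8% rose, and where over 75% was (180 genes), 40.0% rose. How reads that align to several places were counted is not given in the sources used here, and the part of shared reads in these rises was not tested.

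**Figure D1:**
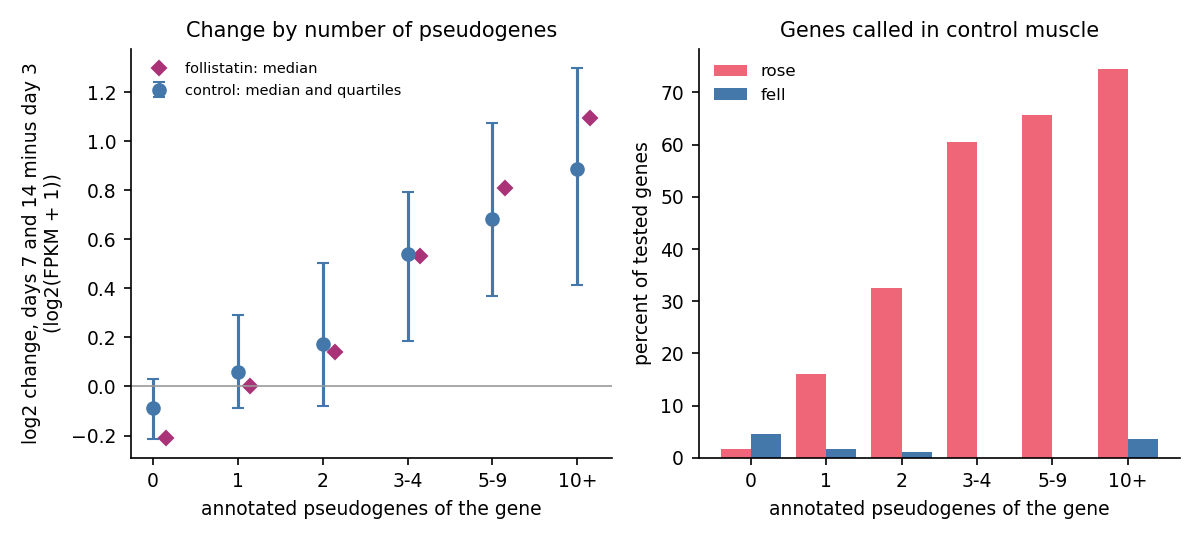
Left: log2 change of tested genes, late minus early, against the number of annotated pseudogenes (points: control median with quartiles; diamonds: follistatin median). Right: percent of tested genes that rose or fell in control muscle. The share that rose goes from 1.65% with 0 pseudogenes to 74.5% with 10 or more.

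The sequences show how alike such copies can be. Ppp1cc, a catalytic subunit of protein phosphatase 1 (chr5:122158278-122175273, mm10, plus strand), and its transcribed processed pseudogene Ppp1ccb (chr7:119739926-119742226, plus strand) are identical over the first 90 coding bases and share 99.7% of 1148 aligned bases. Sumo2, a small ubiquitin-like modifier (chr11:115523102-115536276, minus strand), and its processed pseudogene Gm12335 (chr11:75066436-75066762, minus strand) differ at 3 of the 285 coding bases shown. Capitals mark the bases that differ within a pair. All are read from GENCODE M21 transcripts.
Ppp1cc: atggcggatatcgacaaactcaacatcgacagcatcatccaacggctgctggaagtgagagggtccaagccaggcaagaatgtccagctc
Ppp1ccb: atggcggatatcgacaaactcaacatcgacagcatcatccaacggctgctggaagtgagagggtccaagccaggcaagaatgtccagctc
Sumo2: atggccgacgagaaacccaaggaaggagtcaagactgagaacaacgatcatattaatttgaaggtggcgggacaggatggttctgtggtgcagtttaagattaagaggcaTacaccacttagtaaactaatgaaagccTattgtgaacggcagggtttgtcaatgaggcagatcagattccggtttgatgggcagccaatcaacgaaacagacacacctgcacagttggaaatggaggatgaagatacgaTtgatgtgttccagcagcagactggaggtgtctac
Gm12335: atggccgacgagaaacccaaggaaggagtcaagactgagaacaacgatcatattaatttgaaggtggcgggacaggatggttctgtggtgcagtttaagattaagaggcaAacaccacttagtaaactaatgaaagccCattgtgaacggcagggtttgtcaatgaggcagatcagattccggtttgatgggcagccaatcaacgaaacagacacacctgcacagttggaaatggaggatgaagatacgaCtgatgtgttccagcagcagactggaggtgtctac

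The largest rises by the naming rule were of genes with a copy, though for Olfr613 and Nhp2l1 only 10.3% and 18.5% of the transcript was found elsewhere. Ppp1cc stood at 15.1, 15.1 and 14.7 FPKM at day 3, at 78.2 and 81.3 at day 7 and at 73.0 at day 14, a change of 2.29 (SE 0.06, adjusted p = 3.15e-05). Sumo2 stood at 20.4, 22.8 and 23.4 FPKM, then 101 and 97.3, then 97 (2.10, SE 0.07, adjusted p = 3.15e-05). For both, the late libraries lay close together and far above the early ones. Hnrnpf, an RNA-binding protein of the splicing machinery, rose from 4.47 to 5.34 FPKM early to 32.8 to 38.7 late (2.63, SE 0.09). Cdk2ap1, a binding partner of the kinase Cdk2, rose from 10.7 to 11.9 to 64.5 to 76.2 FPKM, and Tmed2, a cargo receptor of the early secretory pathway, from 18.1 to 20.8 to 98.1 to 104 FPKM. Nhp2l1, a protein of small nucleolar and spliceosomal particles, changed by 2.41, Cycs, cytochrome c, by 2.27, Armcx3, a mitochondrial outer membrane protein, by 2.20, and Srp54a, the GTPase of the signal recognition particle, by 2.16. Olfr613, an olfactory receptor gene, was listed at 0 in all early libraries and at 3.04 to 3.76 FPKM late. The values of these genes did not overlap between early and late libraries.

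Copies that the files list separately moved unequally. Amd1, S-adenosylmethionine decarboxylase, was listed at 0.0778, 0.0778 and 0.0779 FPKM early and at 18.3, 35.9 and 75.4 late (5.14, SE 0.45, adjusted p = 0.000947). The copy Amd2, which shares 99.6% of 3202 aligned bases, went from a mean of 117 to 346 FPKM (1.56, SE 0.22, adjusted p = 0.00752). Hba-a2, an alpha-globin gene of red blood cells, stood at 0.359, 0.241 and 0.0928 FPKM early and at 15.2, 14.5 and 9.02 late, while its neighbour Hba-a1 stood at 29.6, 35.9 and 29.5 early and at 0.0435, 14.7 and 9.14 late (-2.57, SE 0.94, adjusted p = 0.154). Hba-a1 was far above Hba-a2 in each early library, close to it in day 7 replicate 2 and day 14, and far below it in day 7 replicate 1. How reads were split between copies is uncertain.

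Ribosomal protein genes, which encode the structural proteins of the ribosome and have many pseudogenes, gave the list with the most rises: 53 of 77 rose (68.8%, against 4.48% of all genes) and 3 fell, with a median of 0.72 against -0.07 for all genes. Rps6 rose from 52.3, 45.8 and 47.2 FPKM to 188, 180 and 211 (1.97, SE 0.09, adjusted p = 7.43e-05), Rpl15 from 34.4 to 36.4 to 96.3 to 105 FPKM, and Rpsa from 66.2 to 73.6 to 170 to 210 FPKM. Only 6 of the 77 had no copy found, with a median of -0.08, and 2 of them rose: Rpl39 by 0.95 and Rps29 by 0.75. Rpl30 stood at 5.29, 4.08 and 2.36 FPKM early and was listed at 0 in all late libraries, Rps27 fell by 1.02 and Rplp2, an acidic stalk protein, by 0.47. Each of these 3 has a copy, and the calls of Rps27 and Rplp2 ended in 5 of the 6 fits without 1 library. Of 35 ribosome biogenesis genes 1 rose, the nucleolar methyltransferase gene Fbl (0.76), which has a copy, and the median was -0.06.

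Genes of energy metabolism were counted with and without copies. Of 79 oxidative phosphorylation genes 11 rose (13.9%, against 4.48% of all genes) and 1 fell (median 0.09), and of the 56 with no copy 1 rose. That gene was Atp5g2, a c subunit of ATP synthase, at 121, 133 and 123 FPKM early and 394, 351 and 458 late (1.66, SE 0.11, adjusted p = 0.00027). Uqcrq, a subunit of complex III, fell by 0.45, a call that ended without any 1 library. Among genes with copies, Atp5l rose by 1.63, Ndufb4 by 1.23 and Atp5g1 by 1.20. Of 26 glycolysis and glycogen genes 7 rose (26.9%) and 1 fell. Without 1 library 3 to 6 of them rose, and after quantile normalization 4. Pgk1, phosphoglycerate kinase, rose from 288, 289 and 278 FPKM to 888, 889 and 924 (1.66, SE 0.06), Pkm, pyruvate kinase, by 0.66 and Ldha, lactate dehydrogenase, by 0.49, and all 3 have copies. Of the 19 genes on this list without a copy, Ppp1r3c rose and Pfkfb4, an isoform of the enzyme that makes fructose 2,6-bisphosphate, fell by 0.52. Of 38 citric acid cycle and fatty acid oxidation genes, 1 rose (2.63%): Hadhb, of the mitochondrial trifunctional protein, by 0.96, which has a copy. Of 23 heat shock genes 6 rose (26.1%), among them Hspa8 (1.29), Hsp90aa1 (1.09) and the small heat shock gene Hspb1 (1.03). All 6 have copies, and 0 of the 15 without a copy were called by limma.

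Rises among genes with no copy found numbered 107. Ppp1r3c, which targets protein phosphatase 1 to glycogen, stood at 39.5, 35.6 and 45.2 FPKM at day 3, at 101 and 131 at day 7 and at 139 at day 14 (1.60, SE 0.14, adjusted p = 0.000996). Its late libraries were all above 100 FPKM and its early ones all below 46. The others named here were chosen after their values were seen, except Egr1, Xirp1, Txnip and Asb2. Ube2s, a ubiquitin-conjugating enzyme, rose from 12.4, 8.08 and 7.44 FPKM to 37.7, 38.6 and 49.1 (2.08, SE 0.19, adjusted p = 0.00119). Cox7a2l rose from 51.9 to 62.3 to 126 to 144 FPKM. Stbd1, a glycogen-binding protein, rose from 27.4 to 31.1 to 45.3 to 59.3 FPKM, and Glrx, glutaredoxin, from 15.9 to 18.5 to 28.6 to 35.3. Among transcription factors, Klf10 changed by 1.28, the endothelial factor Bcl6b by 1.12, the immediate early gene Egr1 by 1.12 and Vgll2, a muscle cofactor of TEAD proteins, by 0.55. Xirp1, an actin-binding protein of stressed muscle, rose from 16.0 to 18.8 to 28.8 to 32.9 FPKM. Asb2, a substrate receptor of a Cullin-5 ubiquitin ligase, stood at 125, 111 and 118 FPKM early and at 165, 188 and 198 late (0.63, SE 0.09, adjusted p = 0.00684). Ube2s and Txnip overlap genes of the other strand, over 183 and 606 exon bases. Txnip, an inhibitor of thioredoxin and of glucose uptake, rose by 0.71, and its call ended without day 3 replicate 2, day 3 replicate 3 or either day 7 library.

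Genes of muscle development were among the largest falls. Myh3, the embryonic myosin heavy chain, stood at 14.8, 16.9 and 44.6 FPKM at day 3, at 1.65 and 1.93 at day 7 and at 1.07 at day 14, a ratio of early to late means of 16.4 (-3.21, SE 0.39, adjusted p = 0.00413). Tmem8c, or myomaker, the membrane protein that lets myoblasts fuse, stood at 7.01, 10.8 and 14.4 FPKM, then 0.629 and 0.804, then 0.197 (-2.90, SE 0.26, adjusted p = 0.00111). Myog, the transcription factor of myoblast differentiation, stood at 11.3, 12.5 and 22.2 FPKM, then 2.25 and 2.06, then 1.11 (-2.51, SE 0.27, adjusted p = 0.00243). Day 3 replicate 3 was the highest library for each of these 3 genes, and the day 14 library was the lowest. Tnnt2, the troponin T of heart and of developing skeletal muscle, fell from 15.0, 20.3 and 38.7 FPKM to 2.42 to 3.91 (-2.55, SE 0.33). Tnni1, the slow troponin I, fell from 15.3, 15.4 and 33.0 FPKM to 2.79 to 4.04 (-2.20, SE 0.30). Myod1 fell less, from 16.2, 20.3 and 17.2 FPKM to 8.94 to 9.67 (-0.86, SE 0.09, adjusted p = 0.00244). The calls of Myh3, Tmem8c, Myog, Tnnt2 and Tnni1 held under each alternative that was run.

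Of 16 genes tested on the developmental contractile list, 4 fell (25%, against 4.22% of all genes) and 1 (Xirp1) rose, with a median of -0.52. Those 4 were Myh3, Tnnt2 and the acetylcholine receptor genes Chrng and Chrna1, which the synapse list also counts. Without 1 library 2 to 5 fell, and 7 with small RNA genes left out of the fit. Of 19 satellite cell and myogenic regulator genes, 3 fell (15.8%: Tmem8c, Myog and Myod1) and 0 rose, with a median of -0.14. Pax7, the satellite cell factor, was under the limit for testing, at 0.683 to 1.02 FPKM early and 0.528 to 0.758 late. Not all fetal genes followed. Actc1 (cardiac actin) was tested and not called, and the developmental list summed to 699 to 935 FPKM early and 324 to 1137 late, which overlap. Of 24 synapse and denervation genes 5 fell (20.8%), and 1 to 4 without 1 library: Myog, Chrng, Chrna1, Gadd45a and Dok7. Chrng, the fetal gamma subunit of the acetylcholine receptor, stood at 3.12, 2.81 and 7.46 FPKM, then 0.125 and 0.448, then 0.0798 (-2.08, SE 0.32, adjusted p = 0.0108). Chrna1, the alpha subunit, fell from 7.87, 7.94 and 15.0 FPKM to 3.52, 4.46 and 3.08 (-1.22, SE 0.24, adjusted p = 0.0302). The call of Chrng ended without day 7 replicate 1 or day 14 replicate 1, and that of Chrna1 without any 1 library except day 3 replicate 3. Dok7, an activator of the synaptic kinase MuSK, fell by 0.48, and Gadd45a, a stress and denervation gene, by 0.70. Dok7 was no longer called without any 1 library, nor Gadd45a without any except day 7 replicate 1.

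**Figure D2:**
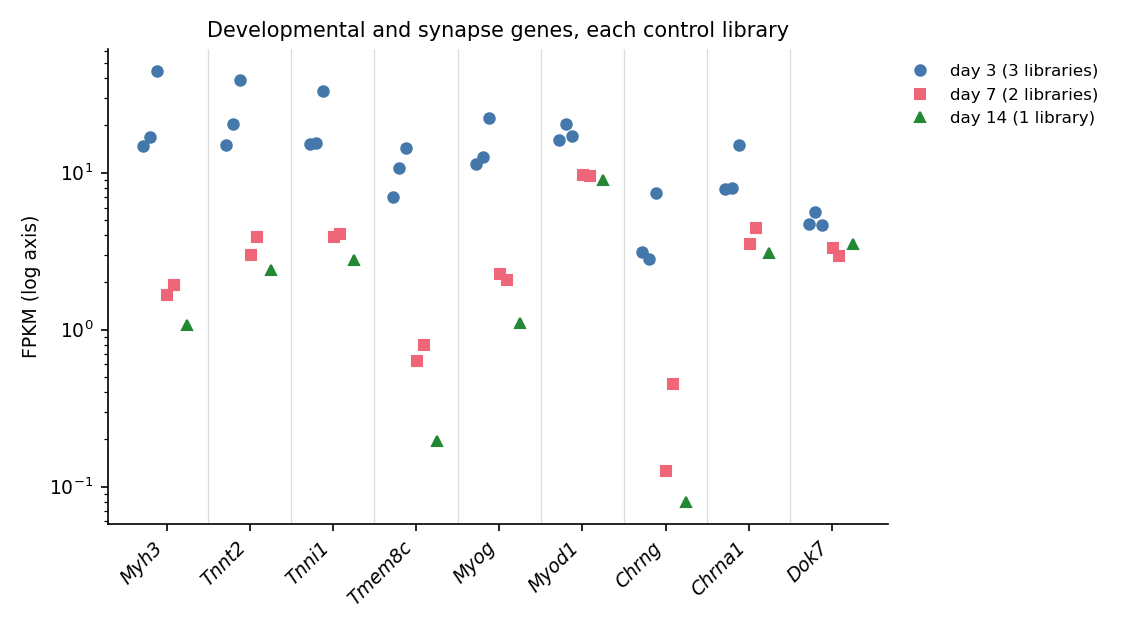
FPKM (log axis) of 9 developmental and synapse genes in each control library, by day. For Myh3 the day 3 libraries lie between 14.8 and 44.6 and the later ones between 1.07 and 1.93.

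Promoters of both receptor subunits hold E-boxes of the sequence that myogenic factors bind. The motif CAGCTG was searched on both strands in RefSeq promoters (GRCm38.p6, 250 bases before to 50 after the start), and 16.3% of 32851 promoters hold it. Of the 9 genes of these lists that fell, 7 had a promoter in the table and 3 of those held the motif (Chrna1, Chrng and Tnnt2). The 250 bases before the start are shown for Chrng (chr1:87205561-87205810, plus strand) and Chrna1 (chr2:73580339-73580588, minus strand), with the motif in capitals. A match is a description of the letters only.
Chrng: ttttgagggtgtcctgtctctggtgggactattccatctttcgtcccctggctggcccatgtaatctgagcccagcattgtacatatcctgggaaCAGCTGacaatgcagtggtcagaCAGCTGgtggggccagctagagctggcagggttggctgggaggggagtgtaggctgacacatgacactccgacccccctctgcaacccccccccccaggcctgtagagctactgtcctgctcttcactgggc
Chrna1: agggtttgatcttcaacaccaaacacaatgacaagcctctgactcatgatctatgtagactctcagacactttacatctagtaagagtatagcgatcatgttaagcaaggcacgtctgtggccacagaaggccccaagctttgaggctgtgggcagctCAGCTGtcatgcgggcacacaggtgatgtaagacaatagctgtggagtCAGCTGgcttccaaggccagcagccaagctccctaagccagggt

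Macrophage genes were lower in the late libraries. Of 25 tested markers of macrophages and monocytes, 12 fell (48.0%, against 4.22% of all genes) and 0 rose, with a median of -1.24 against -0.07 for all genes. In 18 of them (against 31.1% of all genes) early and late libraries did not overlap. Ctss, the lysosomal protease cathepsin S, stood at 22.9, 23.5 and 37.9 FPKM at day 3, at 3.76 and 10.03 at day 7 and at 3.05 at day 14 (-2.25, SE 0.39, adjusted p = 0.0178). Lgals3, galectin-3, stood at 14.9, 12.9 and 22.6 FPKM, then 2.93 and 5.69, then 2.73 (-1.91, SE 0.28, adjusted p = 0.00883). Cd68, a lysosomal membrane protein of macrophages, stood at 10.3, 10.4 and 12 FPKM, then 1.89 and 5.78, then 1.88 (-1.63, SE 0.33, adjusted p = 0.0301). In all 3, day 7 replicate 2 was the highest late library, and no late library reached the early ones. The calls of Ctss and Cd68 ended without any 1 library except day 7 replicate 2, and that of Lgals3 without day 14 replicate 1.

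Ms4a7 fell by 1.49 and was, with Lgals3, among the smallest p-values of the list. The receptors Trem2 (-1.70) and Csf1r (-1.34, the receptor for the macrophage growth factor), the glycoprotein Gpnmb (-1.44), Adgre1 (-1.26, the F4/80 antigen), the Fc receptor Fcgr3 (-1.25) and the complement chain C1qc (-1.24) also fell. The scavenger receptor Cd163 (-0.54) and the lectin Cd209a (-0.82) fell by less. These 8 genes were chosen after their values were seen. The 33 markers listed, tested or not, summed to 263 to 405 FPKM early and 78.8 to 205 late, and 0 of them were at 0 in all late libraries. In bulk tissue, fewer cells of a type and less RNA per cell cannot be told apart. The count of falls depended on single libraries: without day 3 replicates 1, 2 and 3 it was 2, 3 and 3, without day 7 replicates 1 and 2 it was 2 and 16, and without day 14 replicate 1 it was 1. The median of the list stayed between -1.03 and -1.53 in these fits. With genes that have a copy left out of the fit, 5 of the 22 markers left fell.

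**Figure D3:**
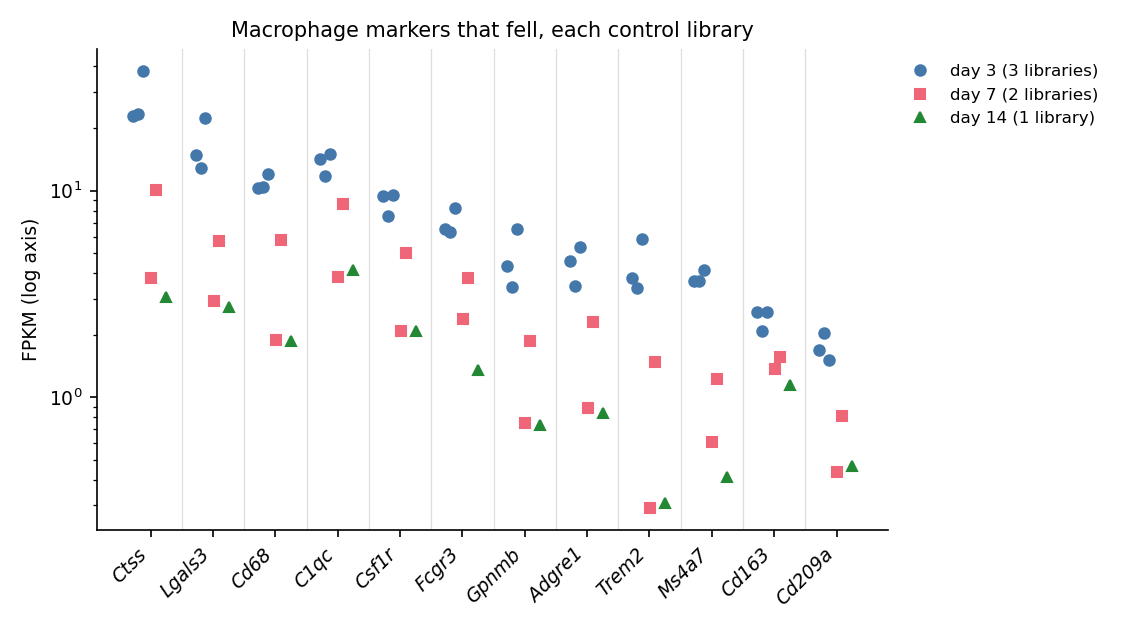
FPKM (log axis) of the 12 macrophage markers that fell, in each control library by day. For Ctss the day 3 libraries lie between 22.9 and 37.9 and the later ones between 3.05 and 10.03, where the highest late value is a day 7 library.

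Other immune lists had fewer genes that passed the test. The pan-leukocyte gene Ptprc stood at 2.36, 2.19 and 3.70 FPKM early and at 0.603, 1.57 and 0.626 late (-0.97, SE 0.24, adjusted p = 0.058). Of 35 interferon response genes 3 fell (8.57%, against 4.22% of all genes) and 0 rose. Those 3 were Ifi35 (-0.71), Ifit2 (-0.61) and Ifit3 (-0.60, which has a copy). Without any 1 library 0 or 1 fell, and 0 after either rescaling by the median ratio or quantile normalization. Of 21 antigen presentation genes 0 were called by limma, with a median of -0.30. Without day 7 replicate 2, 6 of them fell and the median was -0.50, and without any other 1 library 0 were called. The summed level of the list was 552 to 642 FPKM early and 359 to 609 late, highest among late libraries in day 7 replicate 2. Of 12 tested chemokines, cytokines and acute phase genes, 1 fell (8.33%): Ccl11, the eosinophil chemokine eotaxin. Ccl11 went from 22.6 to 28.5 FPKM to 10.3 to 15.4 (-0.97, SE 0.15, limma adjusted p = 0.0111), a call that ended without day 3 replicate 2 or day 7 replicate 1. Of 19 complement and coagulation genes 2 fell (10.5%), the inhibitor Serping1 (-0.50) and the protease C1s1 (-0.57, which has a copy). The count was 0 without any 1 library except day 7 replicate 2, and 0 after rescaling by the median ratio. T and B cell markers were mostly under the limit for testing, with 1 tested member in each list (Ptprc in that of T and NK cells), and Cd3e stood at 0 to 0.322 FPKM in the 6 libraries.

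Clock genes changed in both directions. Of 23 circadian clock and output genes, 10 fell (43.5%, against 4.22% of all genes) and 3 rose (against 4.48%), with a median of -0.32. Arntl, the activator also known as Bmal1, stood at 1.81, 2.70 and 2.19 FPKM at day 3, at 8.50 and 10.5 at day 7 and at 6.81 at day 14 (1.56, SE 0.17, adjusted p = 0.00226). Its partner Clock rose by 0.43 and Nr1d1, the repressor Rev-erb alpha, rose from 37.1, 37.1 and 41.7 FPKM to 67.3, 77.7 and 63.8 (0.83, SE 0.09, adjusted p = 0.00274). Per2 stood at 5.89, 6.81 and 5.25 FPKM, then 0.845 and 0.478, then 1.60 (-1.86, SE 0.21, adjusted p = 0.00303). Per3 fell from 14.4, 11.9 and 12.7 FPKM to 4.81, 3.68 and 5.46 (-1.32, SE 0.13, adjusted p = 0.00186). For both Per genes day 7 replicate 2 was the lowest library and day 14 the highest late one, with no overlap between early and late.

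The output factors that bind D-boxes fell together: Dbp from 37.3, 40.3 and 38.0 FPKM to 15.8, 10.1 and 16.7 (-1.40, SE 0.17, adjusted p = 0.0043), Hlf from 6.48 to 7.13 FPKM to 1.81 to 2.81 (-1.23, SE 0.12, adjusted p = 0.00171) and Tef by 0.50. Dbp shares 539 exon bases with Sphk2 on the opposite strand, and the strand setting is not given, so part of its reads may belong to that gene. The repressor Ciart fell by 1.48, Cry2 by 0.84, the deubiquitinase Usp2 by 0.81, the activator Rora by 0.49 and the kinase Csnk1e, which phosphorylates PER proteins, by 0.34. Without a library in turn, 6 to 10 clock genes fell and 2 to 3 rose. The lowest count, 6, came without day 3 replicate 1, day 7 replicate 1 or day 7 replicate 2. Clock and Usp2 each lost the call without any 1 library except day 14 replicate 1, and Ciart without any 1 day 3 library or day 7 replicate 1. Tef lost it without day 3 replicate 1, day 3 replicate 2 or either day 7 library, and Cry2 without day 7 replicate 2. Csnk1e lost it without any 1 library except day 3 replicate 2, and after rescaling by the median ratio. The calls of Arntl, Per2, Per3 and Hlf held under each alternative that was run.

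**Figure D4:**
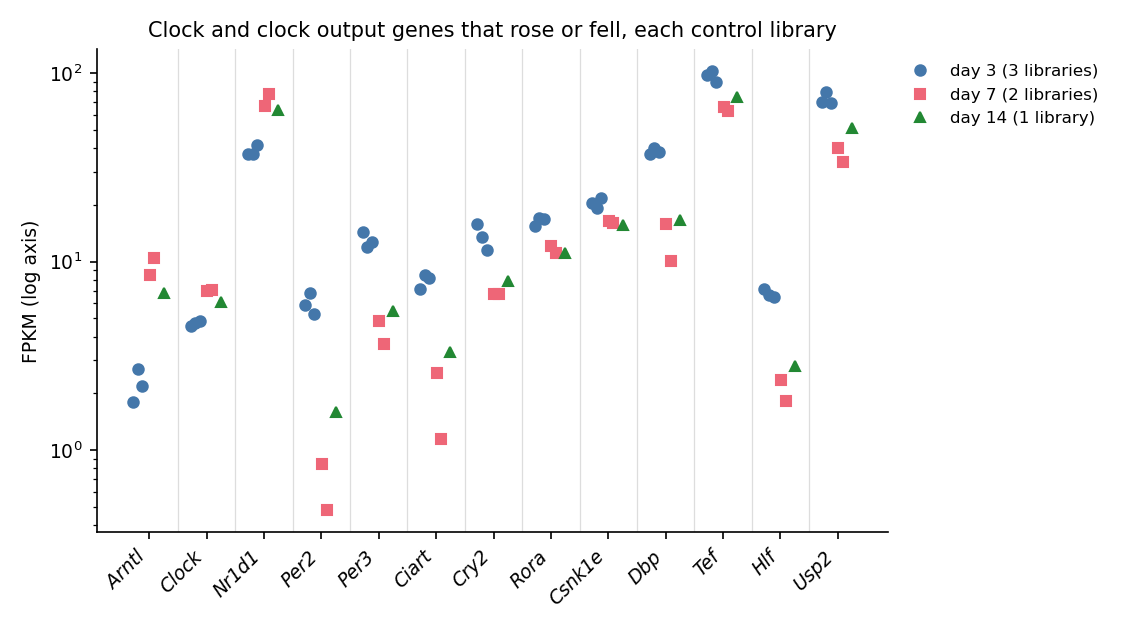
FPKM (log axis) of the 13 clock and output genes that rose or fell, in each control library by day. Arntl, Clock and Nr1d1 are higher at days 7 and 14 and the other 10 are lower, with Per2 between 5.25 and 6.81 at day 3 and between 0.478 and 1.60 later.

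Binding sequences of clock factors were searched in the same way. The E-box CACGTG, bound by Arntl and Clock, occurs in 7.15% of promoters, and the D-box TTATGTAA, bound by Dbp, Hlf and Tef, in 0.938%. Of the 10 clock genes that fell, 9 had a promoter in the table: 2 held the E-box (Ciart and Tef) and 1 the D-box (Per3). Among the 3 that rose, 0 held either. The 250 bases before the start are shown for Ciart (chr3:95882229-95882478, minus strand), with 3 E-boxes in capitals, and for Per3 (chr4:151044666-151044915, minus strand), with 2 D-boxes in capitals (GRCm38.p6, RefSeq).
Ciart: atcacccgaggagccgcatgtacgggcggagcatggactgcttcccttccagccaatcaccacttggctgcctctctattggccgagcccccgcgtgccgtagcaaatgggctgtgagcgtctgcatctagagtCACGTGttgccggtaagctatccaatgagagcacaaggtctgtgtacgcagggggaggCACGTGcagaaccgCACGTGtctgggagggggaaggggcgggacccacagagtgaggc
Per3: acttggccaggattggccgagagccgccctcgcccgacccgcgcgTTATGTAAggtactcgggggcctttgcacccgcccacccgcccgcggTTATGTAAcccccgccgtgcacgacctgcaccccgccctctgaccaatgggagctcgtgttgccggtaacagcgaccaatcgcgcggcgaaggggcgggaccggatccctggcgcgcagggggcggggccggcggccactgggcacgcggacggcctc

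Genes of the glucocorticoid and fasting response fell in part: 12 of 27 fell (44.4%, against 4.22% of all genes) and 0 rose, with a median of -0.44. Ddit4, which restrains the growth kinase complex mTORC1, stood at 15.7, 12.6 and 11.8 FPKM at day 3, at 3.13 and 2.96 at day 7 and at 4.75 at day 14 (-1.65, SE 0.17, adjusted p = 0.0019). Glul, glutamine synthetase, stood at 76.3, 74.3 and 75.8 FPKM, then 40.5 and 41.9, then 50.4 (-0.76, SE 0.09, adjusted p = 0.00363). Arrdc2, an arrestin-domain protein, fell from 21.6 to 39.3 FPKM to 3.05 to 12.6 (-2.11, SE 0.44, adjusted p = 0.0341). In these 3 genes the day 14 library was the highest late one and did not reach any early library. The call of Arrdc2 ended without any 1 library except day 14 replicate 1. The metal-binding protein Mt2 fell by 1.23, the cell cycle inhibitor Cdkn1a by 0.95, the transcription factors Cebpb and Cebpd by 0.95 and 0.93, and Nfkbia, the inhibitor of NF-kappa B, by 0.80. Smaller falls were those of Pik3ip1 (-0.48), Tsc22d3 (-0.44, the glucocorticoid-induced leucine zipper), the branched-chain aminotransferase Bcat2 (-0.39) and Klf9 (-0.35). Without 1 library the count of falls was 2 to 6: it was 2 without day 3 replicate 1 or day 7 replicate 1, 3 without day 3 replicate 2, day 3 replicate 3 or day 7 replicate 2, and 6 without day 14 replicate 1. After rescaling by the median ratio 4 fell and 1 rose. With genes that have a copy left out of the fit, 2 of the 25 left fell.

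In the activin, myostatin and BMP pathway 3 of 27 genes fell (11.1%, against 4.22% of all genes) and 1 rose (3.70%, against 4.48%). Follistatin binds activins and myostatin, which signal through Acvr2b and Acvr1b to Smad3. Acvr2b stood at 5.72, 7.03 and 6.66 FPKM early and at 2.62, 2.58 and 2.56 late (-1.05, SE 0.09, adjusted p = 0.000953). Acvr1b fell from 40.0, 33.7 and 31.0 FPKM to 19.9, 17.7 and 20.4 (-0.81, SE 0.11, adjusted p = 0.00571). Smad3 rose by 0.38 and Id3, a target of BMP signalling, fell by 0.60. The call of Smad3 ended without any 1 library except day 7 replicate 2, and that of Id3 without any. Mstn (myostatin) stood at 17.1, 16.3 and 18.0 FPKM early and at 12.9, 20.2 and 23.7 late (0.10, SE 0.20, adjusted p = 0.806), and Fst at 1.01 to 1.42 early and 0.808 to 1.17 late (-0.12, SE 0.15, adjusted p = 0.657). Both overlapped between early and late libraries. Of 28 genes of the IGF, Akt and mTOR pathway, Ddit4 and Eif4ebp1 fell (7.14%) and Akt2 (0.50) rose (3.57%). Eif4ebp1 and Akt2 have copies, and the call of Eif4ebp1 ended without any 1 library except day 3 replicate 2. Igf1 was at 3.59 to 6.14 FPKM early and 3.30 to 6.01 late.

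Of 27 genes of atrophy and the ubiquitin system, 5 rose (18.5%, against 4.48% of all genes) and 3 fell (11.1%, against 4.22%). Without 1 library 2 to 4 rose and 0 or 1 fell. The ubiquitin gene Ubb, which has a copy, rose from 60.1 to 70.6 FPKM to 193 to 254 (1.73, SE 0.12), Bnip3, a mitophagy receptor with a copy, by 0.69, and Map1lc3b, an autophagosome protein, by 0.46. Asb2 and Smad3 also rose. Falls were of Mt2, the F-box gene Fbxo21 (-0.61) and the autophagy receptor Sqstm1 (-0.25). Sqstm1 and Mt2 lost the call without any 1 library, and Bnip3, Map1lc3b and Fbxo21 in 3 or 4 of the 6 such fits. The atrophy ligases Fbxo32 (0.19, SE 0.16, adjusted p = 0.499) and Trim63 (-0.17, SE 0.07, adjusted p = 0.165) did not pass. Of 22 genes of metallothioneins and oxidative stress 3 rose (13.6%: Txnip, Sod2 and Prdx1) and 2 fell (9.09%: Mt2 and Nqo1). Without 1 library 0 or 1 rose and 0 to 4 fell, and Prdx1, which has a copy, was called in none of these fits. Of 24 genes of ER chaperones and the unfolded protein response, 1 rose and 1 fell (4.17% each, close to the shares of all genes). The oxidase Ero1l rose by 0.65 and Herpud1, of ER-associated degradation, fell by 0.40. Both lost the call without day 7 replicate 1, Ero1l also without day 3 replicate 1, day 7 replicate 2 or day 14, and Herpud1 without day 3 replicate 2 or 3. Of 16 proliferation genes tested, 3 rose (18.75%, against 4.48% of all genes): Pcna, Stmn1 and H2afz, each with a copy. Stmn1 was called only without day 3 replicate 2 among the fits that leave out 1 library. Mki67, a marker of cycling cells, was under the limit for testing at 0.158 to 0.524 FPKM in the 6 libraries.

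Structural and stromal lists were mostly not called. Of 38 collagen and matrix genes 1 fell (2.63%, against 4.22% of all genes): the proteoglycan Dcn. Dcn went from 229 to 276 FPKM to 167 to 211 (-0.49, SE 0.12, limma adjusted p = 0.0483), a call that ended without any 1 library. Col1a1 stood at 83.9, 46.8 and 65.8 FPKM early and at 83.4, 101 and 41.3 late, and Col3a1 at 139, 92.7 and 131, then 118, 196 and 62.5. For both, day 7 replicate 2 was the highest of the 6 libraries and the day 14 library the lowest. Of 20 fibroblast and fibro-adipogenic genes 3 fell (15.0%, against 4.22% of all genes): Dcn, Gsn (-0.65) and Hsd11b1 (-0.92, which regenerates active glucocorticoid). Gsn and Hsd11b1 lost the call without any 1 library except day 7 replicate 2. Of 22 endothelial genes 1 rose (4.55%, against 4.48% of all genes): Kdr, the main VEGF receptor. Kdr went from 10.6 to 12.5 FPKM to 17.2 to 27.6 (0.87, SE 0.17, limma adjusted p = 0.0256), while the list summed to 1112 to 1276 FPKM early and 1061 to 1297 late. The call of Kdr ended without any 1 library except day 14 replicate 1. Of 14 smooth muscle and pericyte genes 1 fell (7.14%), the pericyte marker Rgs5, from 166, 191 and 178 FPKM to 109, 84.9 and 78.8 (-0.98, SE 0.13, limma adjusted p = 0.00548). Limma called 0 of 8 Schwann cell genes, 0 of 10 tendon genes and 0 of 6 neutrophil and mast cell genes.

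Fibre type could be followed only in part, since most fast contractile genes were marked HIDATA. Myh2, the IIA heavy chain, carried this mark and stood at 95.2 to 107 FPKM early and 82.4 to 172 late. Of 3 fast fibre genes tested, Mylk4, a myosin light chain kinase, fell from 789, 716 and 755 FPKM to 411, 332 and 437 (-0.95, SE 0.11, adjusted p = 0.00323). Of 13 slow fibre genes 1 fell (7.69%, against 4.22% of all genes) and 1 rose (7.69%, against 4.48%). Tnni1 fell (3 genes with small RNA genes left out of the fit) and Tpm3, a slow tropomyosin with a copy, rose by 0.44. Tcap, or telethonin, of the sarcomere's Z-disc, was chosen after its values were seen and fell from 2823, 3039 and 2587 FPKM to 1542, 1481 and 1441 (-0.92, SE 0.08, adjusted p = 0.000856).

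Several other large falls had no list. Mlycd, malonyl-CoA decarboxylase, which frees fatty acid oxidation from inhibition, stood at 44.2, 37.1 and 36.7 FPKM at day 3, at 6.49 and 4.46 at day 7 and at 6.02 at day 14, a ratio of early to late means of 6.95 (-2.61, SE 0.14, adjusted p = 0.000135). Msmp stood at 9.53, 11.7 and 8.23 FPKM early and at 0.0844 to 0.239 late (-3.19, SE 0.14), and overlaps Rgp1, encoded on the other strand, over 743 exon bases. Tgm4, a transglutaminase, stood at 4.03, 4.62 and 3.59 FPKM early and at 0.0837 to 0.267 late (-2.10, SE 0.14), and overlaps Zdhhc3 over 830 exon bases in the same way. Rgp1 was at 7.51 to 9.80 FPKM early and 7.92 to 8.84 late and Zdhhc3 at 8.55 to 9.67 and 8.37 to 9.07, and neither was called. The strand setting is not given, so reads of these pairs cannot be told apart. Timp3, an inhibitor of matrix metalloproteinases, fell from 50.3 to 59.2 FPKM to 13.1 to 14.6 (-1.90, SE 0.08) and overlaps Syn3, encoded on the other strand, over 1733 exon bases. Inmt, a methyltransferase, fell from 12.9 to 16.0 FPKM to 2.14 to 4.40, and Apoe, a lipid carrier made by macrophages among other cells, from 87.4 to 124 FPKM to 24.3 to 39.6. Timp3, Inmt and Apoe were chosen after their values were seen. The small RNA gene Mir6340 was listed at 72.6, 241 and 357 FPKM early and at 0 in the late libraries.

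The same comparison in follistatin-treated muscle shares no library with the one above, but its day 3 and late libraries belong to the same sets as the control ones. Both comparisons therefore hold the same difference of set and depth. Of the 11155 genes, 2909 were called there (26.1%), 670 higher (6.01%) and 2239 lower (20.1%), with a median of -0.18. Without follistatin day 3 replicate 1 or 2 the calls there were 1611 and 1506. Of the 500 genes that rose in control muscle, 363 (72.6%, and 54.2% of the 670) were also called higher with follistatin and 0 lower, and 475 had the same sign. Of the 471 that fell, 314 (66.7%, and 14.0% of the 2239) were called lower and 0 higher, and 444 had the same sign. Across all genes the changes in both arms had a Pearson r of 0.596 and a Spearman rho of 0.520. The Pearson r was 0.837 across the 1471 genes with a copy and 0.574 across the 9103 with no copy found. Genes are not independent replicates, and this is a description.

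Members of the groups above had these values with follistatin. Myh3 changed by -4.26 (adjusted p = 0.000225), Myog by -2.18, Per2 by -1.91 and Arntl by 1.29 (adjusted p = 0.0112). Ctss changed by -1.64 (limma adjusted p = 0.0717) and Cd68 by -0.91 (limma adjusted p = 0.065). Of 25 macrophage markers, 5 were called lower and 1 higher, where 20.1% of all genes were called lower and 6.01% higher. That share of falls is close to the share of all genes. Kdr was at -0.07 (adjusted p = 0.871), Clock at 0.02 and Asb2 at 0.17 (adjusted p = 0.484). Gadd45a was at 0.70 (adjusted p = 0.236), against -0.70 in control muscle. An interaction term, fitted on the 14 libraries together, tested the difference between arms and called 8 genes (0.0717%), with 1672 at an unadjusted p under 0.05. Of the 971 genes called in control muscle, 1 differed by that test: Tubb4b, a beta-tubulin with a copy. The interaction had an adjusted p of 0.261 for Kdr, 0.259 for Gadd45a and 0.237 for Hba-a2.

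**Figure D5:**
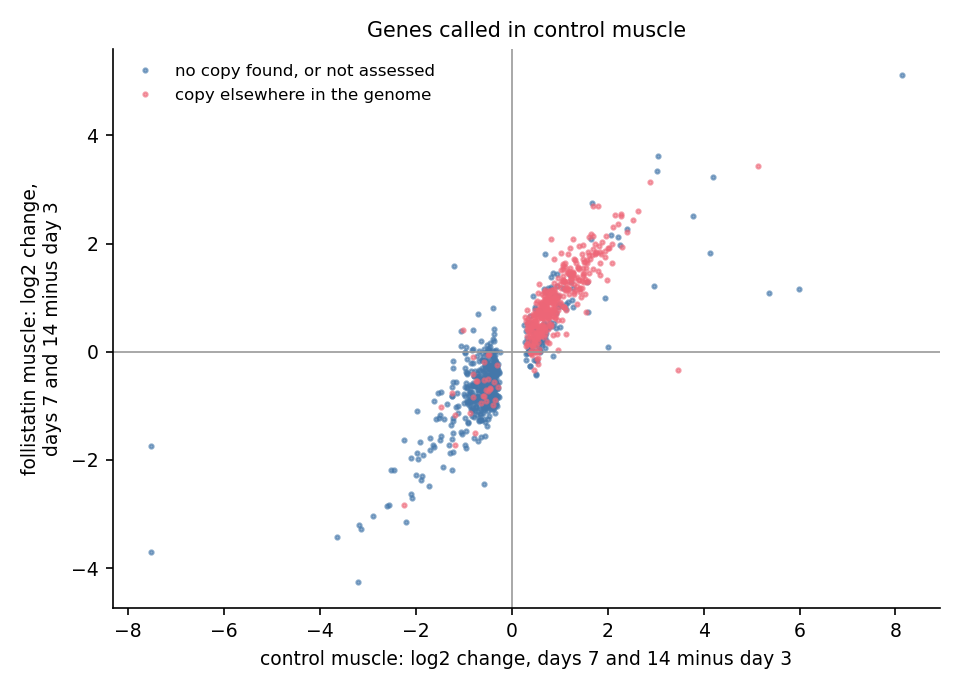
Log2 change, late minus early, in control muscle (x axis) and follistatin muscle (y axis) for the 971 genes called in control muscle. Of these, 475 of 500 rises and 444 of 471 falls have the same sign in both arms, and genes with a copy elsewhere in the genome lie mainly among the rises.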

How the data were processed

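RNA sequencing of tibialis anterior muscle was analysed for 6 control libraries, with 8 follistatin libraries for comparison. Per the labels' protocols, polyA RNA was prepared with an Illumina TruSeq kit. The deposited values are FPKM per gene; the submitters' processing notes name TopHat, Cuffdiff and mm10, and versions, strand setting and treatment of multiply aligned reads are not given in the sources used here. Of 24386 symbols 27 had turned into dates and were dropped, and 31 genes marked HIDATA were left out of the test. The test took genes averaging 1 FPKM or more over the 6 libraries, on log2(FPKM + 1) with limma 3.58.1 (R 4.3.3; lmFit and eBayes with a trend), adjusted by Benjamini-Hochberg at 0.05 over all 11155 genes. The fit was tested on simulated data. Copies were found with minimap2 2.31 among GENCODE M21 transcripts (at least 90% identity, and at least 50% of a pseudogene covered or 100 bases aligned), and overlaps with bedtools 2.31.1. FPKM keeps no read counts, so no count model was used. Depth was estimated from the lowest values and sets the precision of low genes.

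The rule for named genes took the 12 largest rises and 12 largest falls without overlap (leaving out predicted genes, pseudogenes and small RNA genes), the 3 smallest p-values of each list with a call (2 in other lists), 19 preset genes and the 5 called genes with the smallest interaction p. Other called members that the text names were chosen after their values were seen. The comparison and the gene lists were chosen with earlier results of these data known. Alternatives changed the pseudocount, filter, scaling, variance model, block, fold limit, libraries and gene classes.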

Additional observations from a re-analysis of the deposited data

Results flagged for a closer look

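For 2 of the named genes the change from day 3 to the later days differed between follistatin and control muscle by the interaction test. Fst, follistatin itself, changed by -0.12 in control muscle and by 3.65 in follistatin muscle, where its mean went from 57.6 to 878 FPKM, an interaction of 3.77 (SE 0.56, limma adjusted p = 0.0329). Tubb4b, a beta-tubulin, rose by 0.81 in control muscle, from 62.5, 54.0 and 58.6 FPKM to 99.0, 94.5 and 116. In follistatin muscle it changed by 2.08, from a mean of 60.5 to 259 FPKM, an interaction of 1.27 (SE 0.16, limma adjusted p = 0.0151). Tubb4b has 3 pseudogenes and overlaps Fam166a on the other strand over 121 exon bases.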

How the results depend on the processing

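Against 971 calls in control muscle (500 higher, 471 lower), dropping the filter on low values left 246 lower, rescaling by the median ratio 278 lower, and 1 fit of all 14 libraries 257 lower. A 1.5-fold limit left 156 (127 and 29). Leaving out genes with a copy, added after the data were seen, left 270 (79 higher, 191 lower) over 9684 genes. In the main fit 417 genes with no copy found were lower. Falls went from 12 to 5 among macrophage genes and from 12 to 2 among glucocorticoid genes. They went from 5 to 2 among synapse genes and from 3 to 0 among fibroblast genes. Satellite cell genes kept 3 falls, and clock genes went from 10 to 8. With a replicate block the calls were 393 (280 higher, 113 lower), and in follistatin muscle 310 (158 and 152). Same-numbered libraries had deviations correlated at 0.050, -0.036 and -0.033, and libraries of unlike number at -0.044 to 0.086. So few pairs cannot show whether same-numbered libraries are paired, and the labels do not state it. Leaving out 1 library gave 490 to 622 calls, with 142 to 218 lower, and in follistatin muscle 1506 to 2939, with 1045 to 2349 lower; the spread is then pooled over the libraries left. Quantile normalization left 1839 calls (939 lower) in follistatin muscle, against 2909 (2239 lower). The other settings kept these totals over all genes within 1.5 times; counts within gene lists moved further in some. Among the genes examined singly, direction changed only for some that were not called. Col3a1 was at 0.003523 by the median ratio, 0.0652 with the block and -0.47 to 0.35 without 1 library. Igf1 was at 0.005157 by the median ratio, 0.0412 by quantiles, 0.0828 with the block and -0.24 to 0.14 without 1 library. Myoz1 was at -0.13 by quantiles and -0.0442 to 0.12 without 1 library. Col1a1 was at -0.11 to 0.52 and Mstn at -0.0773 to 0.34 without 1 library. The cause of these shifts was not tested. Depth limits genes near 1 FPKM most in the early libraries.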
